A study of Mus musculus with 7 samples.

Results

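The genes described here were Mt1, Mt2, Txnrd1, Srxn1, Prdx1, Prdx5, Gclm and Sod2, taken by symbol from all 7 count matrices of a single-cell RNA-seq time course of mouse heart leukocytes after myocardial infarction. All 8 symbols were present among the 27514 genes shared by the annotations used. Each symbol was followed in cells named monocytes/macrophages and in cells named neutrophils.

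The mice were C57BL6/J, stated to be male for every library except a pool of blood and heart cells, whose mice were 8 to 10 weeks old. In the first experiment, viable CD45+ leukocytes of the heart that an intravenous anti-CD45.2 antibody had not labelled were sorted at steady state (no infarct, 5 mice) and at days 1, 3 and 5 (5 mice each) and day 7 (3 mice) after infarction, after a step that reduced neutrophils, giving 5 libraries, of which the steady-state one also carries the infarction label in 1 field. In the second experiment, CD11b+ cells of hearts at day 1 (5 mice), day 3 (5 mice) and day 5 (3 mice) were labelled with hashtag antibodies 1, 2 and 3 and captured as 1 pool. The hearts of both experiments were minced and digested with collagenases and hyaluronidase at 37°C. A further capture pooled CD11b+ cells of blood and heart from mice without surgery, with sham surgery at day 1 or day 3, and with permanent coronary ligation at day 1 or day 3, with hearts dissociated mechanically and with 7 hashtags that the labels do not pair with these conditions. The labels give 1 library or hashtag per time point and experiment, made from pooled mice, so the replicates of a day are the 2 experiments, which also differed in sort and reagent chemistry.

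Metallothioneins are small cysteine-rich proteins that bind zinc and copper, and their genes are induced by zinc through the transcription factor MTF1, which binds metal response elements, and by glucocorticoids. Thioredoxin reductase, sulfiredoxin and peroxiredoxins form a chain that reduces peroxides, glutathione does so in parallel, and manganese superoxide dismutase turns superoxide into peroxide inside mitochondria. Many of these genes carry antioxidant response elements, the sites of the transcription factor NRF2, and Sod2 is a known target of NF-κB. Neutrophils and macrophages both make superoxide through their NADPH oxidase.

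Mt1 and Mt2 are neighbours on chromosome 8, and their levels moved together over the 8 monocyte/macrophage sums (Pearson r = 0.984 of log2(CPM + 1) centred on each experiment's mean, across sums that share libraries). Their upstream sequences are shown so that the motifs named above can be read beside the levels. They come from RefSeq on GRCm38.p6 and end at or before the annotated gene start. Capitals mark matches on either strand to the core of the metal response element, spelled TGCACNC or TGCGCNC, and to the core of the antioxidant response element, spelled TGACNNNGC or TGAGNNNGC. The Mt2 stretch is chr8:94172368-94172617 and the Mt1 stretch chr8:94178839-94179081, both on the plus strand.
Mt2: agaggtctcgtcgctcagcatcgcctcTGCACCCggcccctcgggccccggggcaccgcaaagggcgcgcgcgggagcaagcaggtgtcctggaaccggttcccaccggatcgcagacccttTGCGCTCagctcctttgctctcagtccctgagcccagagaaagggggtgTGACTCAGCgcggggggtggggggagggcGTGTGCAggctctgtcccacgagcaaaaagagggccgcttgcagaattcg
Mt1: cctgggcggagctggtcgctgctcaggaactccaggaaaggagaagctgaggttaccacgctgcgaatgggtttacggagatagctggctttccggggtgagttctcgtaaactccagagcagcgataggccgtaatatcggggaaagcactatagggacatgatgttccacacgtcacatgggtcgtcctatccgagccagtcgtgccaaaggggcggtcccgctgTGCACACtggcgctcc
In the Mt2 stretch the metal element core matched at -223, -128 and -50 and the antioxidant element core at -79, counted from the RefSeq start. In the Mt1 stretch a metal element core matched at -23. Of 32851 mouse promoters searched over the same 250 bases, 21.4% held at least 1 metal element core, 1.26% held at least 3 and 23.0% held at least 1 antioxidant element core. A match is a description of letters, and no binding was measured. Bases after the annotated start were not searched, so matches there would be missed. Mt1 and Mt2 are therefore not ranked by their matches.

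Prdx1 and Gclm also moved together in monocytes/macrophages (r = 0.965 over the 8 sums), and their sequences are shown for the same reason. The Prdx1 stretch is chr4:116685349-116685543 and the Gclm stretch chr3:122245307-122245556, both on the plus strand.
Prdx1: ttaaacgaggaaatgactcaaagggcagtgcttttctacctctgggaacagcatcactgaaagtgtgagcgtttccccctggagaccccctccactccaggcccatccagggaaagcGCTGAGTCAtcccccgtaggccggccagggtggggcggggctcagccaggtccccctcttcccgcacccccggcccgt
Gclm: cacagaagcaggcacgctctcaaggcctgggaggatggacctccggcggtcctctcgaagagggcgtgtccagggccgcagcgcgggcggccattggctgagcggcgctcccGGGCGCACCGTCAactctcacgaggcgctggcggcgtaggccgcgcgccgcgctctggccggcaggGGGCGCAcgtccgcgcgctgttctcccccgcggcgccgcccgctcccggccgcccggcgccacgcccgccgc
The Prdx1 stretch held an antioxidant element core at -133. In the Gclm stretch an antioxidant element core at -134 overlapped a metal element core at -138, and a second metal element core stood at -72. Srxn1 had antioxidant element cores at -158 and -45 and a metal element core at -19, and 3.18% of promoters held at least 2 antioxidant element cores. Of the 3 annotated Txnrd1 starts, 1 had an antioxidant element core, at -92. No match was found in the 250 bases before the starts of Sod2 and Prdx5. On GRCm38 with GENCODE M21, the protein-coding genes lie at chr8:94172664-94173568 (Mt2), chr8:94179082-94180327 (Mt1), chr4:116685544-116700822 (Prdx1), chr3:122245557-122270732 (Gclm), chr2:152105516-152111376 (Srxn1), chr10:82833951-82897712 (Txnrd1), chr17:13006846-13040063 (Sod2) and chr19:6906697-6910106 (Prdx5, minus strand).

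After filters, 522 to 1793 cells were used per CD45+ library (median 3594 to 9463.5 UMIs per cell), 4282 in the CD11b+ pool (median 18082.5) and 9999 in the pool of blood and heart (median 4282). A UMI is a molecule counted once. In the CD11b+ pool 17.4% of barcodes exceeded 10% mitochondrial UMIs. CD45+ libraries shared at most 2 barcodes with each other, and the CD11b+ pool shared 28 with the pool of blood and heart. Clusters were named from marker lists with the 8 genes and the pathway lists kept out of the genes used for clustering, which left 245 to 731 monocytes/macrophages per CD45+ library and 223, 1051 and 1220 in the pool at days 1, 3 and 5. Neutrophils numbered 216, 135 and 40 in the CD45+ libraries of days 1, 3 and 5 and 254, 993 and 226 in the pool, and the 7 at steady state and 28 at day 7 were too few to sum. The markers that named the clusters were present, which is no separate check of the names. The 29 neutrophil markers together summed to 57198 to 256013 CPM (UMIs per 1000000 UMIs of the sum) in neutrophil sums of days 1 to 5. The 32 monocyte/macrophage markers summed to 26866 to 61712 CPM in monocyte/macrophage sums. The lowest of these, 26866 CPM, was the CD45+ day 1 sum. There the neutrophil markers summed to 27088 CPM, above the class's own. The summed UMIs ran from 104485 (neutrophils, CD45+ day 5) to 39250100 (monocytes/macrophages, pool day 5).

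One pool cluster named neutrophil, number 3, had none of the neutrophil markers among its 10 leading genes (Tnf, Icam1 and Ccl3 among them), although 12 neutrophil markers were detected in it and its median Ly6G antibody count was 306.5, against 98 to 120.5 in the monocyte/macrophage clusters. Its median UMI count was 0.361 of the median of its own days and 0.213 of that of the whole pool. It held 8.27%, 75.1% and 63.3% of the pool's neutrophils at days 1, 3 and 5, and without it the genes called in neutrophils numbered 43 at day 3 and 59 at day 5 against day 1, with none of the 8 among them, against 159 and 469 with it.

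Levels below are scaled CPM: a gene's UMIs relative to all UMIs of the class in that library or hashtag, with TMM scaling over all sums. Mt1 in monocytes/macrophages was 4151 CPM at steady state, 7794 at day 1, 1027 at day 3, 902 at day 5 and 1528 at day 7 in the CD45+ libraries. In the pool it was 1183, 673 and 674 CPM at days 1, 3 and 5. The steady-state and day 1 CD45+ libraries were the high ones, and the CD45+ levels of days 3, 5 and 7 were below steady state. Every pool level, day 1 included, was also below it. The pool has no steady-state sample of its own, and at day 1 the CD45+ level was 6.59-fold the pool's.

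Mt2, the other metallothionein of these cells, was 602, 2340, 139, 95.5 and 274 CPM in the same 5 CD45+ libraries and 170, 82.5 and 80.3 CPM in the pool. In the CD45+ libraries it had the same order of days as Mt1. With 1 library per time point, no test was made against steady state or day 7: the ratio of day 1 to steady state was 1.88 for Mt1 and 3.89 for Mt2, and that of day 3 to steady state 0.247 and 0.231. The steady-state level was thus 4.04 times that of day 3 for Mt1 and 4.33 times for Mt2. From day 5 to day 7 the Mt2 level was 2.87-fold and the Mt1 level 1.69-fold higher.

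In neutrophils, Mt1 was 3439, 295 and 293 CPM at days 1, 3 and 5 of the CD45+ libraries and 121, 108 and 181 CPM in the pool. Mt2 was 438, 24.8 and 7.70 CPM (the last from 1 UMI) and 13.98, 8.63 and 13.7 CPM. The CD45+ library of day 1 stood alone: its neutrophil level was 28.5-fold that of the pool's day 1 for Mt1 and 31.3-fold for Mt2, against 2.73-fold and 2.88-fold at day 3. Scaling raised that sum, and its unscaled Mt1 level was 1703 CPM.

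The fitted changes from day 1 used edgeR's quasi-likelihood test with Benjamini-Hochberg adjustment over all genes tested and the experiment as a term, with 2 sums per day. In neutrophils from day 1 to day 3, Mt2 fell by 2.84 on the log2 scale (SE 0.72, adjusted p = 0.0417), while the Mt1 difference was -2.40 (SE 0.70, adjusted p = 0.0781). The 2 experiments differed in size: for Mt2 the log2 difference was -4.15 in the CD45+ libraries and -0.81 in the pool, and for Mt1 -3.63 and -0.24. Without the CD45+ neutrophil sum of day 1 the fitted Mt2 difference was -0.59, and Mt2 was no longer past the threshold without that sum, without the CD45+ sum of day 3, or without the pool's sum of day 5. At day 5 the Mt2 difference from day 1 was -2.39 (SE 0.79, adjusted p = 0.0696) and the Mt1 difference -1.72 (SE 0.72, adjusted p = 0.149), with a pool value of 0.66 for Mt1, opposite in sign to the -3.47 of the CD45+ libraries.

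In monocytes/macrophages the Mt1 and Mt2 levels at day 1 lay above those of days 3 and 5 in both experiments, but neither gene passed the threshold. The Mt1 difference was -2.03 at day 3 (SE 0.55, adjusted p = 0.159) and -2.13 at day 5 (SE 0.56, adjusted p = 0.0637). The Mt2 difference was -2.92 at day 3 (SE 0.86, adjusted p = 0.178) and -3.16 at day 5 (SE 0.88, adjusted p = 0.0724). At day 5 the CD45+ libraries gave -3.12 and the pool -0.90 for Mt1, and -4.62 and -1.16 for Mt2. Leaving out the CD45+ day 1 sum, the day 5 differences were -0.87 and -1.21, and both then passed the threshold, as in 3 of the other 5 fits that each left out 1 sum.

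**Figure D1:**
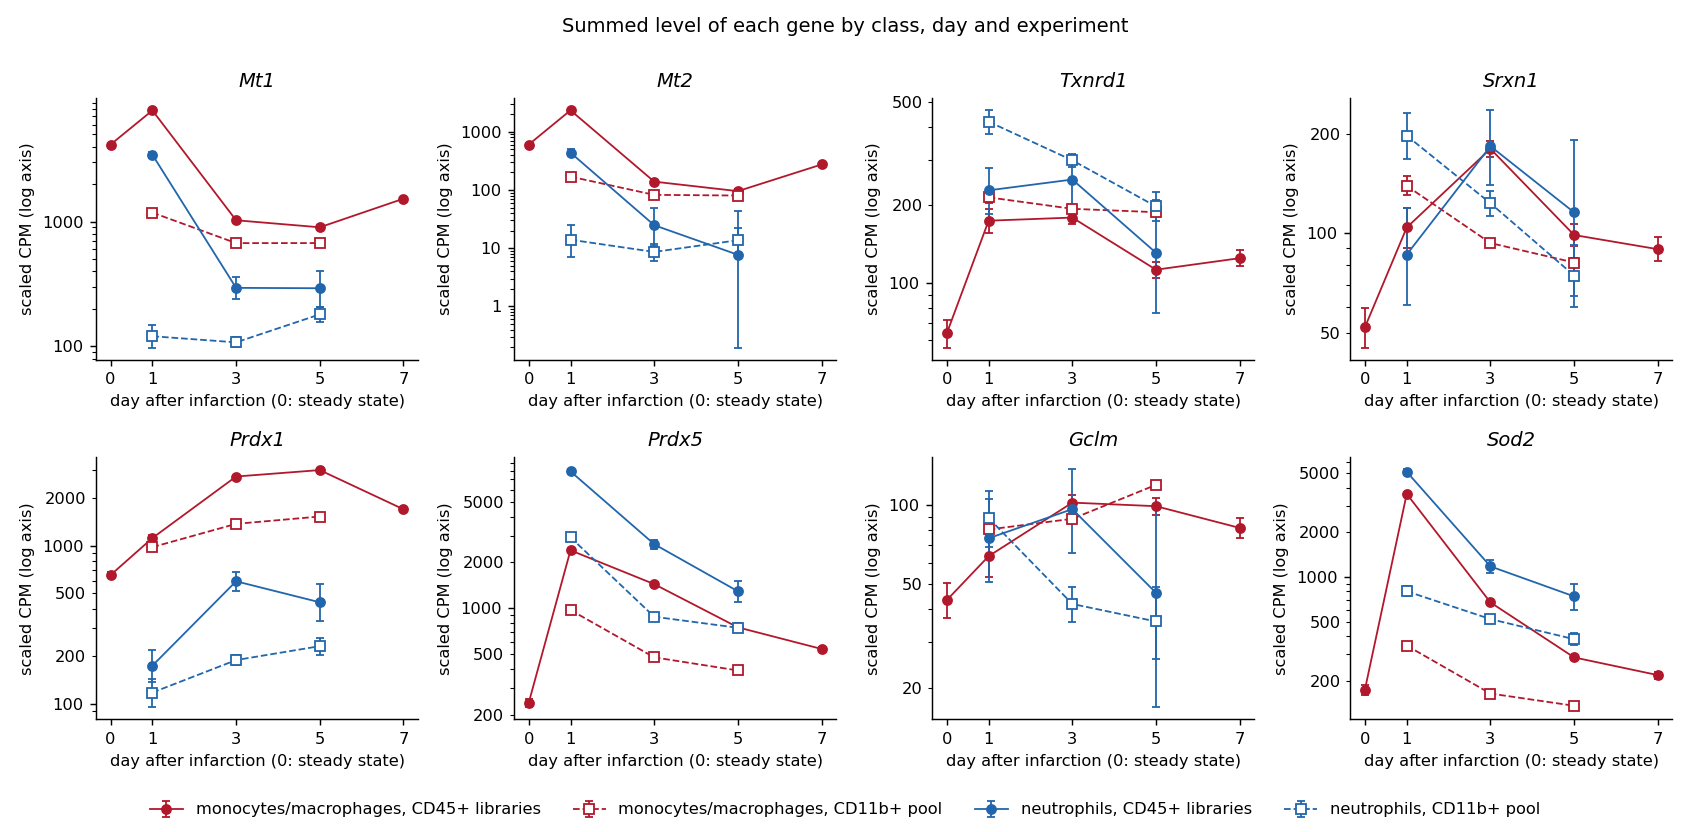
Scaled CPM of each gene (log axis) against day after infarction, with 0 for steady state, in monocytes/macrophages and neutrophils of the CD45+ libraries and the CD11b+ pool. Points are class sums and bars exact 95% Poisson intervals, which cover counting error only; Mt1 in monocytes/macrophages is at 4151 CPM at steady state and 7794 at day 1, while Prdx1 is highest at 3002 CPM at day 5.

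Metallothionein UMIs were spread unevenly over cells. Each cell was thinned to 1500 UMIs to compare shares at 1 depth. A Mt1 UMI was then found in 92.7% of monocytes/macrophages at steady state, 91.8% at day 1, 56.8% at day 3, 57.6% at day 5 and 69.4% at day 7 (98.9%, 99.6%, 90.2%, 89.2% and 96.8% before thinning). In the day 7 library 28.7% of B cells, 28.1% of T cells and 26.8% of NK cells also had a Mt1 UMI after thinning. In neutrophils the share was 56.0%, 20.7% and 30% in the CD45+ libraries and 12.7%, 11.6% and 17.97% in the pool. By level within the CD45+ day 5 library, Mt1 was 363 CPM (unscaled) in the 40 neutrophils. That was above its 163 CPM in B cells, 60.3 CPM in NK cells and 36.8 CPM in T cells. The other days differed. At day 1 it was 1699 CPM in neutrophils, over all genes of that library's annotation, below 2873 CPM in 16 T cells and above 551 CPM in 13 B cells. At day 7 it was 266 CPM in 28 neutrophils, near 252 CPM in NK cells, 218 CPM in B cells and 211 CPM in T cells.

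For Mt2 the thinned shares in monocytes/macrophages were 33.2%, 58.0%, 11.9%, 9.03% and 20.8% from steady state to day 7, against 5.30% of B cells. In neutrophils they were 21.3% at day 1, 3.70% at day 3 and 0 of 40 cells at day 5 of the CD45+ libraries (which allows a share of up to 7.5%), and 0.847%, 1.56% and 1.84% in the pool. Of the 216 neutrophils of the CD45+ day 1 library, the 22 with most metallothionein UMIs held 71.8% of the 671 found after thinning, with up to 85 in 1 cell. Their summed monocyte/macrophage markers were 7273 CPM, against 8949 CPM in the other 194, and their median depth 3956.5 UMIs, against 3360. In monocytes/macrophages of the same library the 25 cells with most held 40.3%.

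**Figure D2:**
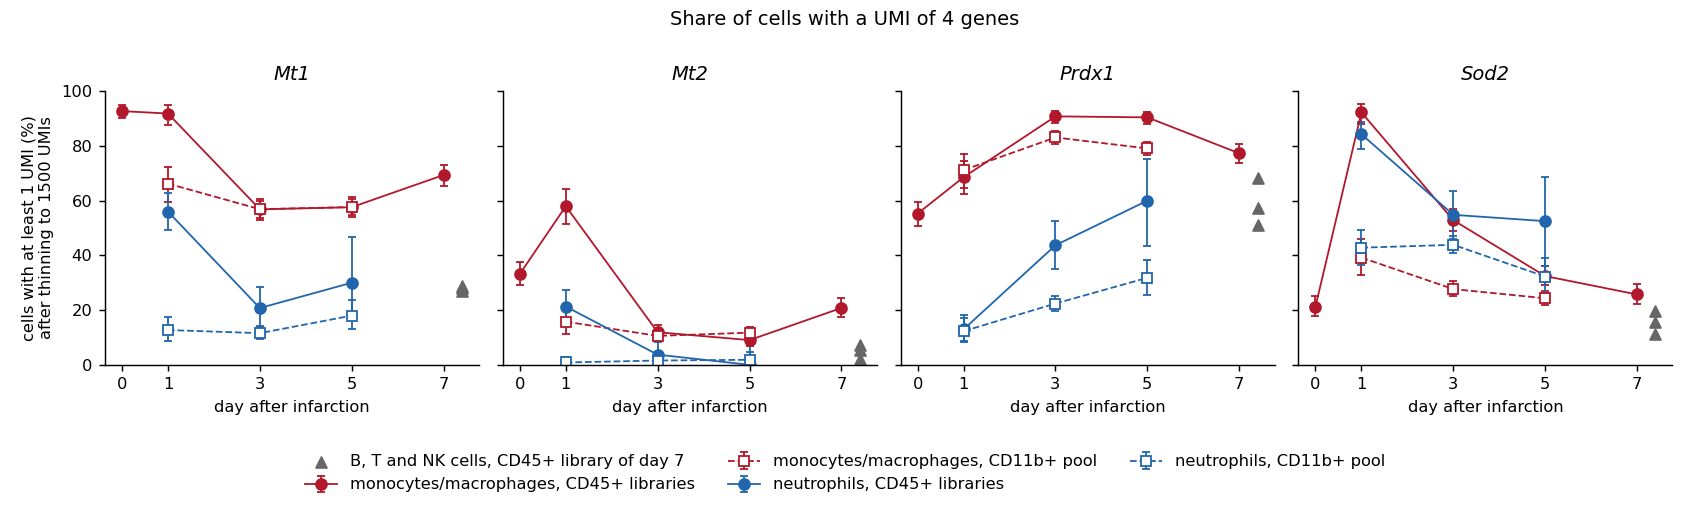
Percent of cells with at least 1 UMI of Mt1, Mt2, Prdx1 or Sod2 after thinning each cell to 1500 UMIs, by day, for both classes and experiments, with exact 95% binomial intervals. Triangles are B, T and NK cells of the day 7 CD45+ library; Mt1 is at 92.7% of monocytes/macrophages at steady state and near 57% at days 3 and 5 in both experiments (56.8% and 57.6%, 56.9% and 57.7%).

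Mt1 was also measured in small numbers of other cells of the CD45+ libraries. At day 1 Mt1 stood at 2873 CPM in 16 T cells, 551 CPM in 13 B cells and 2589 CPM in 25 dendritic cells (unscaled). At day 5 it stood at 36.8 CPM in 13 T cells, 163 CPM in 28 B cells and 560 CPM in 37 dendritic cells. The steady-state library had 773 CPM in 14 T cells, 670 CPM in 10 B cells and 4972 CPM in 21 dendritic cells. The part of RNA outside cells in the Mt1 levels was not tested.

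Within monocytes/macrophages, the levels of Mt1 and Mt2 differed between clusters as well as days. In the CD45+ libraries, 96.9% of the steady-state cells fell in cluster 0 (led by the heat shock gene Hspa1a and by Mgl2, Cbr2 and Folr2, with Atf3 also among its 10 leading genes), where Mt1 was 4310 CPM at steady state and 2816 CPM in the 91 cells of day 7 (unscaled, as are all cluster levels). Cluster 14, led by Saa3, Cxcl3 and Arg1, held 77.1% of the day 1 cells and had 6226 CPM of Mt1 and 1748 CPM of Mt2. Cluster 9, with the monocyte genes Ly6c2 and Ccr2, had 894, 402 and 664 CPM of Mt1 at days 3, 5 and 7, and cluster 8, with the macrophage genes Ms4a7, Spp1 and Gpnmb, had 1362, 1077 and 1449 CPM. Cluster 11, led by the interferon-induced genes Cxcl10, Rsad2 and Isg15 and with Mt2 among its 10 leading genes, held 11.8% of the day 1 cells, and over all days its 101 cells had 3589 CPM of Mt1 and 1178 CPM of Mt2.

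The pool showed the same genes high in an Arg1 cluster and low in a Ly6c2 cluster on each day. Mt1 in the Arg1 cluster (number 6) was 1936, 1652 and 1183 CPM at days 1, 3 and 5, and in the Ly6c2 cluster (number 0) 542, 443 and 508 CPM. Mt2 was 316, 362 and 263 CPM in the first and 20.1, 9.04 and 10.9 CPM in the second. The Arg1 cluster made up 54.7%, 8.85% and 5.33% of the pool's monocytes/macrophages at the 3 days. From day 3 to day 5 the class levels of Mt1 (673 and 674 CPM) and Mt2 (82.5 and 80.3 CPM) were nearly level. The part of cluster shares in the class differences was not tested.

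**Figure D3:**
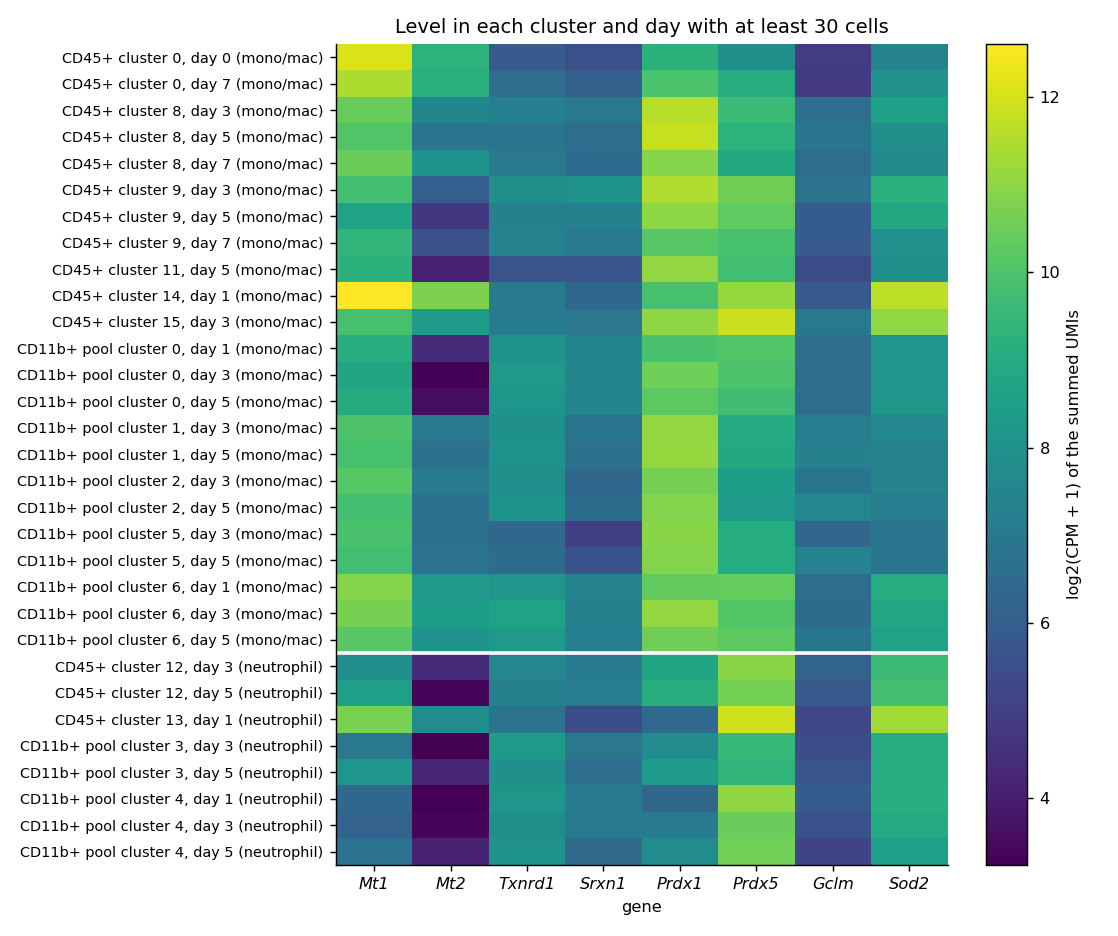
Heat map of log2(CPM + 1) of the 8 genes in each monocyte/macrophage and neutrophil cluster and day with at least 30 cells, unscaled, day 0 being steady state. Mt1 is brightest in CD45+ cluster 14 of day 1 (6226 CPM) and cluster 0 of steady state (4310 CPM), and Mt2 is dark in the pool's cluster 0 (9.04 to 20.1 CPM) on every day.

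Thioredoxin reductase 1 (Txnrd1) returns thioredoxin to its reduced form. Its level in monocytes/macrophages was 63.9, 174, 179, 113 and 125 CPM from steady state to day 7 in the CD45+ libraries and 215, 194 and 188 CPM in the pool. In neutrophils it was 228, 251 and 131 CPM and 421, 298 and 198 CPM. Every post-infarction level in monocytes/macrophages was above the steady-state level, by 2.73-fold at day 1, and no day change passed the threshold (log2 difference at day 5 from day 1 of -0.88, SE 0.40, adjusted p = 0.192 in neutrophils, and of -0.45, SE 0.20, adjusted p = 0.182 in monocytes/macrophages).

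Sulfiredoxin (Srxn1) repairs overoxidised peroxiredoxins. In monocytes/macrophages it was 52.0, 104, 180, 98.8 and 89.5 CPM from steady state to day 7 of the CD45+ libraries and 139, 93.4 and 81.6 CPM in the pool. In neutrophils it was 86.2, 183 and 116 CPM and 197, 123 and 74.5 CPM. The experiments disagreed on the order of days 1 and 3 in both classes: the log2 difference was 0.80 in the CD45+ libraries and -0.62 in the pool for monocytes/macrophages, and 0.99 and -0.75 for neutrophils.

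Peroxiredoxin 1 (Prdx1), a cytosolic peroxidase, was the 1 gene of the 8 whose fitted difference from day 1 was above 0 in both classes at both days. Its level in monocytes/macrophages was 652, 1118, 2734, 3002 and 1698 CPM from steady state to day 7 of the CD45+ libraries and 979, 1374 and 1528 CPM in the pool. In neutrophils it was 175, 596 and 439 CPM and 118, 190 and 232 CPM. Day 1 was the lowest of the 3 days in each class and experiment, but the differences missed the threshold: 0.96 at day 5 in monocytes/macrophages (SE 0.25, adjusted p = 0.0616) and 1.21 in neutrophils (SE 0.41, adjusted p = 0.0762). With total counts alone for scaling, Prdx1 passed the threshold at day 5 in both classes (1.22 and 2.22) and at day 3 in neutrophils (1.80). The steady-state level was below every later level of the CD45+ libraries, with a ratio of 4.60 for day 5.

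Peroxiredoxin 5 (Prdx5), a peroxidase of mitochondria, peroxisomes and cytosol, fell after day 1. Its level in neutrophils was 7904, 2635 and 1294 CPM at days 1, 3 and 5 of the CD45+ libraries and 2921, 881 and 746 CPM in the pool. In both experiments day 1 lay above days 3 and 5. Prdx5 fell by 1.73 at day 3 (SE 0.45, adjusted p = 0.0448) and fell by 2.19 at day 5 (SE 0.46, adjusted p = 0.00846) on the log2 scale. The experiments were closer than for the metallothioneins, with -1.67 and -1.80 at day 3 and -2.54 and -1.88 at day 5 in the CD45+ libraries and the pool. The day 3 call was lost without the CD45+ or the pool's sum of day 3, and the day 5 call without the CD45+ sum of day 5 (fitted differences of -1.92, -1.53 and -1.87).

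In monocytes/macrophages Prdx5 was 240, 2402, 1441, 751 and 542 CPM from steady state to day 7 of the CD45+ libraries and 975, 477 and 392 CPM in the pool. It fell by 1.53 from day 1 to day 5 (SE 0.20, adjusted p = 0.0125), with -1.69 and -1.40 in the 2 experiments, and this held in each of the 6 fits that left out 1 sum. The day 3 difference was -0.89 (SE 0.19, adjusted p = 0.107). Its day 1 level was 10.0-fold the steady-state level, and every later CD45+ level stayed above steady state. The steady-state and day 1 cells lay mostly in different clusters.

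Neutrophils of different days lay in different clusters. In the CD45+ libraries cluster 13 held 99.5% of the day 1 neutrophils, and cluster 12 held 97.0% of those of day 3 and 100% of those of day 5, so the differences of Mt2, Prdx5 and Sod2 from day 1 there compare one cluster with another. In the pool Prdx5 was 2097, 1411 and 1545 CPM in cluster 4 at days 1, 3 and 5, and 727 and 666 CPM in cluster 3 at days 3 and 5. Cluster 4 made up 91.7% of the pool's neutrophils at day 1 and 24.9% at day 3. Without cluster 3 neither Prdx5 difference passed the threshold in neutrophils, nor did any other of the 8 genes.

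Glutamate-cysteine ligase modifier subunit (Gclm) supports the first step of glutathione synthesis. In monocytes/macrophages it was 43.4, 63.7, 102, 98.8 and 81.6 CPM from steady state to day 7 of the CD45+ libraries and 80.5, 88.4 and 119 CPM in the pool. In neutrophils it was 74.6, 96.2 and 46.2 CPM and 89.0, 41.9 and 36.0 CPM. No day change passed: from day 1 to day 5 the difference was 0.54 in monocytes/macrophages (SE 0.21, adjusted p = 0.134) and -0.95 in neutrophils (SE 0.49, adjusted p = 0.25). The difference between these differences was -1.59 (SE 0.50, adjusted p = 0.155 by edgeR's quasi-likelihood test; DESeq2 called it).

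Superoxide dismutase 2 (Sod2) showed the widest span between steady state and day 1. In monocytes/macrophages it was 173, 3640, 673, 286 and 218 CPM from steady state to day 7 of the CD45+ libraries and 344, 163 and 135 CPM in the pool. Day 1 was the highest in both experiments, 20.98-fold the steady-state level in the CD45+ libraries. At day 1 the CD45+ level was 10.6-fold the pool's, which has no steady-state sample. The ratio to steady state also compares different clusters. Cluster 0 held 96.9% of the steady-state cells, and cluster 14, with Sod2 among its 10 leading genes, held 77.1% of the day 1 cells. From day 1 to day 5 Sod2 fell by 2.58 (SE 0.52, adjusted p = 0.0352), with -3.68 and -1.43 in the 2 experiments, and it passed in each of the 6 fits that left out 1 sum.

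In neutrophils Sod2 was 5129, 1179 and 740 CPM at days 1, 3 and 5 of the CD45+ libraries and 801, 520 and 380 CPM in the pool. It fell by 1.92 from day 1 to day 5 (SE 0.49, adjusted p = 0.0249), with -2.72 and -0.99 in the 2 experiments. Without the CD45+ sum of day 1 the difference was -1.02, and the call was lost without that sum, without the CD45+ sum of day 5 and without the pool's sum of day 5. The day 3 difference was -1.53 (SE 0.48, adjusted p = 0.0996).

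The share of cells with a Sod2 UMI after thinning was 21.3%, 92.2%, 52.9%, 32.4% and 25.7% in monocytes/macrophages from steady state to day 7, against 11.1% of B cells, 15.6% of T cells and 19.5% of NK cells at day 7. At day 1 Sod2 was high in monocyte/macrophage cluster 14 (3239 CPM) and neutrophil cluster 13 (2538 CPM) alike, and in 25 dendritic cells it was 1080 CPM. In 16 T cells and 13 B cells of that library it was 249 and 228 CPM.

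Neutrophil transcripts in monocytes/macrophages moved with the same library. The 29 neutrophil markers summed to 246 CPM in the steady-state monocytes/macrophages, 27088 at day 1, 3738 at day 3, 921 at day 5 and 667 at day 7 of the CD45+ libraries, and to 3870, 1300 and 899 CPM in the pool. At day 1 of the CD45+ libraries 28 of the 29 were above 0, and at steady state 6 of them, Ly6g among them, were at 0, as Ly6g was at days 5 and 7. In the neutrophils the 32 monocyte/macrophage markers summed to 8770, 7013 and 8530 CPM and to 8157, 3892 and 4623 CPM. The part of these transcripts in the day 1 levels of Sod2 and Prdx5 was not tested. Both genes were higher in neutrophils by scaled level. Unscaled, Sod2 at day 1 of the CD45+ libraries was 2533 CPM in neutrophils and 3163 CPM in monocytes/macrophages.

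By count, 2 of the 8 genes were called lower at day 3 than day 1 in neutrophils (Mt2 and Prdx5), where 2.57% of 6194 genes tested were called. At day 5 against day 1, 2 of 8 were called (Prdx5 and Sod2), against 7.57% of all genes. From day 3 to day 5 none was called among 0% of all genes, although 136 genes had an unadjusted p under 0.05 and DESeq2 called 1 gene, none of the 8. The median log2 difference of the 8 genes was -1.02 at day 3, beside 0.01 for all genes tested, and -1.34 at day 5, beside -0.03. All-gene calls leaned to lower values (37 higher and 122 lower at day 3, 124 and 345 at day 5), and with total counts alone they leaned to higher ones (399 and 52, 1139 and 91), with the all-gene median at 0.68 and 0.90. Under that scaling Prdx5 stayed past the threshold at day 5 (-1.18) but not at day 3 (-1.06), and Mt2 and Sod2 did not pass.

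In monocytes/macrophages, 0 of the 8 genes were called at day 3 against day 1, where 0.736% of 10603 genes tested were, while 5 of the 8 had an unadjusted p under 0.05. DESeq2 called 4 of the 8 in that comparison. At day 5 against day 1, 2 of 8 were called (Prdx5 and Sod2), against 10.6% of all genes, and DESeq2 called 5. At day 5 against day 3 edgeR called 0 of 8, 1 having an unadjusted p under 0.05, against 0.0283% of all genes, and DESeq2 also called 0 of 8. The median log2 difference of the 8 genes was -0.48 at day 3 and -1.03 at day 5, beside 0.00 and -0.01 for all genes. At day 5 all-gene calls split into 493 higher and 635 lower, and with total counts alone into 674 and 354.

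Levels were also set against steady state, with 1 library each and a 2-fold difference in either direction as the mark. At day 1, 5 of the 8 genes were at least 2-fold apart, all higher (Mt2, Txnrd1, Srxn1, Prdx5 and Sod2). Srxn1 was at the mark, at 2.00-fold. Of 2729 genes with at least 50 CPM in 1 of the libraries, 42.7% differed that much in either direction. For days 3, 5 and 7 the share of all genes was 29.4%, 22% and 15.6%. At day 3 all 8 were at least 2-fold apart, Mt1 and Mt2 lower and the other 6 higher. At day 5 Mt1 and Mt2 were lower and Prdx1, Prdx5 and Gclm higher by that mark, and at day 7 Mt1 and Mt2 were lower and Prdx1 and Prdx5 higher. Between day 5 and day 7 only Mt2 was 2-fold apart, against 2.44% of all genes. These ratios have no replicate check.

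**Figure D4:**
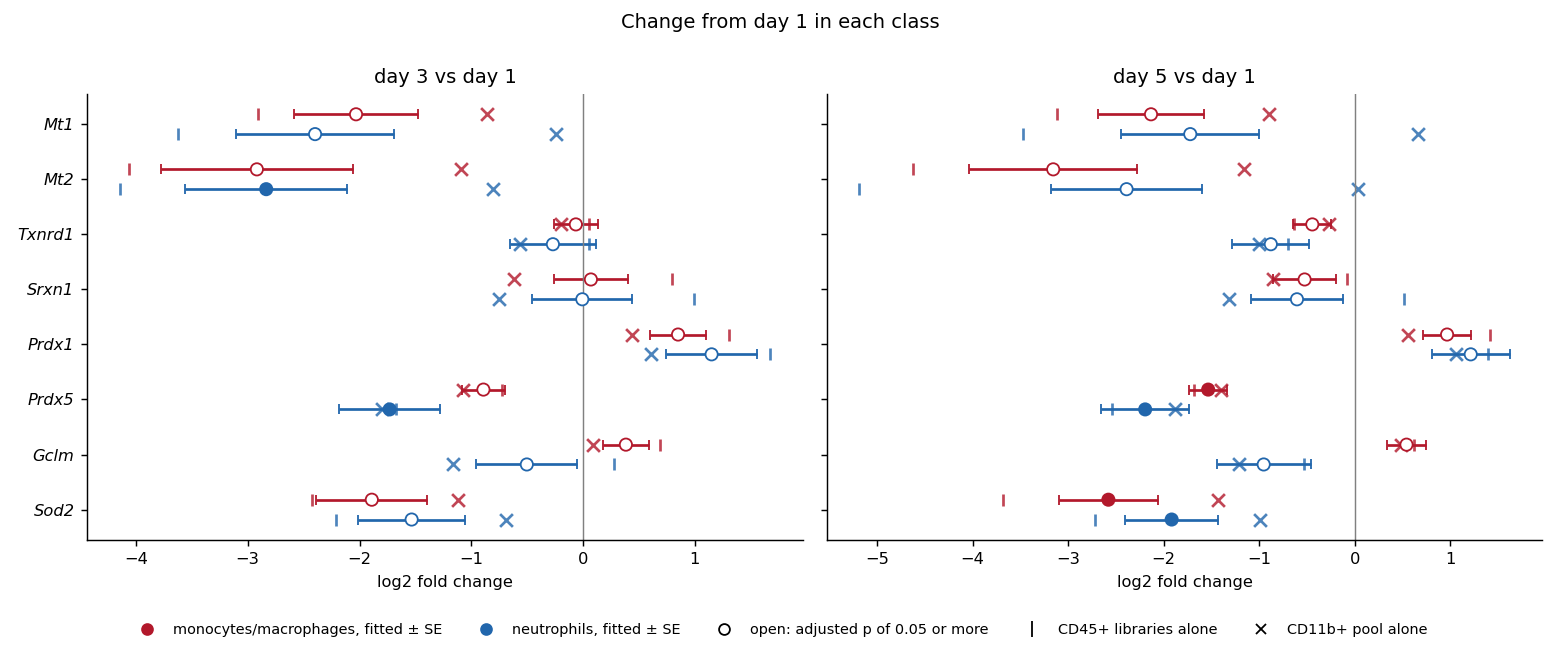
Fitted log2 fold change (x axis) of each gene at day 3 (left) and day 5 (right) against day 1, with SE bars, in monocytes/macrophages and neutrophils. Filled circles passed an adjusted p of 0.05, and ticks and crosses give the CD45+ libraries and the CD11b+ pool alone; the 2 experiments lie far apart for Mt1 and Mt2 (-5.19 and 0.04 for Mt2 in neutrophils at day 5) and close for Prdx5 in monocytes/macrophages (-1.69 and -1.40).

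No gene of the 8 differed between the classes in its change from day 1 by the test of that difference: 0 of 8 at day 3, where 0.0197% of 10152 genes were called, 0 at day 5, where 0.69% were, and 0 from day 3 to day 5, where 0% were (364 genes at an unadjusted p under 0.05). The day 5 calls over all genes split into 40 higher and 30 lower in neutrophils, and with total counts alone into 737 and 25. DESeq2 called 0, 1 (Gclm) and 0 of the 8, and Gclm at day 5 was the 1 case with an unadjusted p under 0.05 by edgeR. With 2 sums per class and day the standard errors were wide, for instance 1.41 for Mt2 at day 5. The fit had an experiment term per class but did not pair the classes of the same library or hashtag. Its standard errors therefore include shifts that both classes of a library share.

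Comparing neutrophils with monocytes/macrophages within each day and experiment, 6 of the 8 genes were called, against 56.4% of 8527 genes tested, so the count is near that of all genes. Prdx1 was lower in neutrophils by a log2 difference of -2.71 (SE 0.20, adjusted p = 2.80e-08), and its highest neutrophil level (596 CPM) lay below its lowest monocyte/macrophage level of those days (979 CPM). Mt2 differed by -2.89 (SE 0.24, adjusted p = 9.07e-08) and Mt1 by -2.07 (SE 0.27, adjusted p = 9.64e-06), each lower in neutrophils in 6 of 6 pairs. With 0.05 added in naming the Mt2 difference was -1.59 and missed the threshold (adjusted p = 0.0814). The ranges of both genes overlapped between classes across days, because the CD45+ neutrophils of day 1 were above the later monocytes/macrophages.

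Sod2 was higher in neutrophils by 1.17 (SE 0.20, adjusted p = 0.000157) and Prdx5 by 1.13 (SE 0.21, adjusted p = 0.00028). Each was higher in 6 of 6 pairs of scaled levels. Without scaling, the CD45+ day 1 pair was reversed for Sod2 (2533 CPM in neutrophils, 3163 CPM in monocytes/macrophages). The same pair was reversed for Txnrd1 (113 and 151 CPM). Txnrd1 was higher by 0.47 (SE 0.19, adjusted p = 0.0405), also in 6 of 6 pairs, but it lost the call in 9 of the 12 fits that left out 1 sum and in 6 of 11 other settings, and with total counts alone the difference was 0.06. Srxn1 (0.13, SE 0.19, adjusted p = 0.577) and Gclm (-0.59, SE 0.27, adjusted p = 0.0743) were not called. The all-gene calls split into 2143 higher and 2669 lower, and with total counts alone into 1240 and 3487. The direction of Mt1, Mt2, Prdx1, Sod2 and Prdx5 was the same under that scaling, and all 5 stayed past the threshold.

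Other genes of these pathways came from lists chosen with earlier results of these data known, and are given as counts of edgeR calls at day 5 against day 1. In monocytes/macrophages, where 10.6% of all genes passed, 4 of 12 glutathione genes did: Slc7a11, the cystine importer, fell by 2.59, glutathione reductase Gsr fell by 2.38 and glutaredoxin Glrx fell by 1.87, and the glutathione transferase Gstm1 rose by 1.36. Of 11 further thioredoxin and peroxiredoxin genes, Prdx4 of the endoplasmic reticulum rose by 1.06, and Prdx6 fell by 1.77 and the thioredoxin-binding Txnip fell by 1.40. Catalase (Cat), which breaks down hydrogen peroxide, rose by 1.69. The list medians were -0.15 for glutathione and -0.24 for thioredoxin and peroxiredoxin genes, beside -0.01 for all genes. Slc7a11, Gsr, Glrx, Prdx6 and Txnip were each called higher in neutrophils than in monocytes/macrophages. The part of neutrophil transcripts in their day 1 levels was not tested.

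In neutrophils, where 7.57% of all genes passed at day 5, 3 of 11 glutathione genes tested did: Glrx fell by 2.54 and the microsomal transferase Mgst1 fell by 2.39, and the transferase Gsto1 rose by 3.10. At day 3, where 2.57% of all genes passed, Mgst1 fell by 2.47 and Glrx fell by 2.11. Of 7 other NRF2 targets tested in each class, 2 passed in each: the ferritin chain Fth1 fell by 2.09 and heme oxygenase Hmox1 fell by 1.79 at day 5 in neutrophils, while in monocytes/macrophages the heme transporter Slc48a1 rose by 0.93 and ferritin Ftl1 by 0.86. Of the 7 NRF2 regulators none passed in monocytes/macrophages and Mafg fell by 1.80 in neutrophils. No gene of NADPH supply passed in either class.

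Zinc and copper handling genes were tested because metals induce metallothioneins. Of 11, only Slc39a14, a zinc and iron importer, passed in monocytes/macrophages at day 5, where it fell by 1.64, and none of the 6 tested passed in neutrophils. Of 9 genes responsive to glucocorticoids, 3 passed in monocytes/macrophages, where 10.6% of all genes did. The scavenger receptor Cd163 fell by 4.02, the decoy receptor Il1r2 fell by 3.06 and Klf9 fell by 2.19. At day 3 Cd163 fell by 3.72 and Il1r2 fell by 2.16, where 0.736% of all genes passed. None of the 7 tested passed in neutrophils. Il1r2 is also among the 29 neutrophil markers, which summed to 27088 CPM at day 1 and 921 at day 5 in CD45+ monocytes/macrophages. The part of neutrophil transcripts in its fall was not tested. Of 15 genes known to respond to tissue dissociation, 2 passed in monocytes/macrophages and 1 in neutrophils, beside 10.6% and 7.57% of all genes. Atf3 rose by 1.08 and Hsp90aa1 fell by 0.73 in monocytes/macrophages, and Egr1 fell by 1.54 in neutrophils. Between classes, 3 of 7 NRF2 regulators were higher in neutrophils (Maff by 2.45, Mafk by 1.62 and Nfe2l2, the gene of NRF2, by 1.32) and Keap1, its inhibitor, differed by -1.11, so that 4 of 7 were called, near the 56.4% of all genes called in that comparison.

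The genes whose pattern over the 8 monocyte/macrophage sums was most like each of the 8 were found among 2246 genes with a mean of at least 50 CPM, by Pearson r as above, a description of sums that share libraries. Mt2 was the gene most like Mt1, followed by Srsf11 (0.975) and Cd33 (0.972). For Mt2 they were Gm9493 (0.994), Cd33 (0.989) and Mt1. For Prdx1 they were Sdhb (0.992), Soat1 and Ndufs8, for Gclm Lpcat2 (0.982), Sdhb and Atp6v0e, and for Prdx5 Chmp2a (0.998), Alas1 and S100a11. For Sod2 they were Psmc6 (0.998), Med10 and Ptpn1, for Srxn1 Ncf4 (0.983), Tkt and Arpc1b, and for Txnrd1 Elk3 (0.993), Eif4e2 and Metap2. For Mt1 and Prdx1 r was -0.853 over these sums and -0.788 over the 6 neutrophil sums, although both had higher levels at day 1 than at steady state in monocytes/macrophages, and at day 5 than at day 1 in the pool's neutrophils.

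In the pool of blood and heart, levels are given by hashtag, and no test was made. Mt1 in monocytes/macrophages ranged from 31.4 to 292 CPM over the 7 hashtags, Prdx1 from 545 to 693, Prdx5 from 973 to 1233 and Sod2 from 92.3 to 120 (unscaled). In neutrophils Mt1 ranged from 1.64 to 20.5 CPM, Prdx1 from 11.8 to 75.8, Prdx5 from 1117 to 1450 and Sod2 from 16.3 to 66.3.

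**Figure D5:**
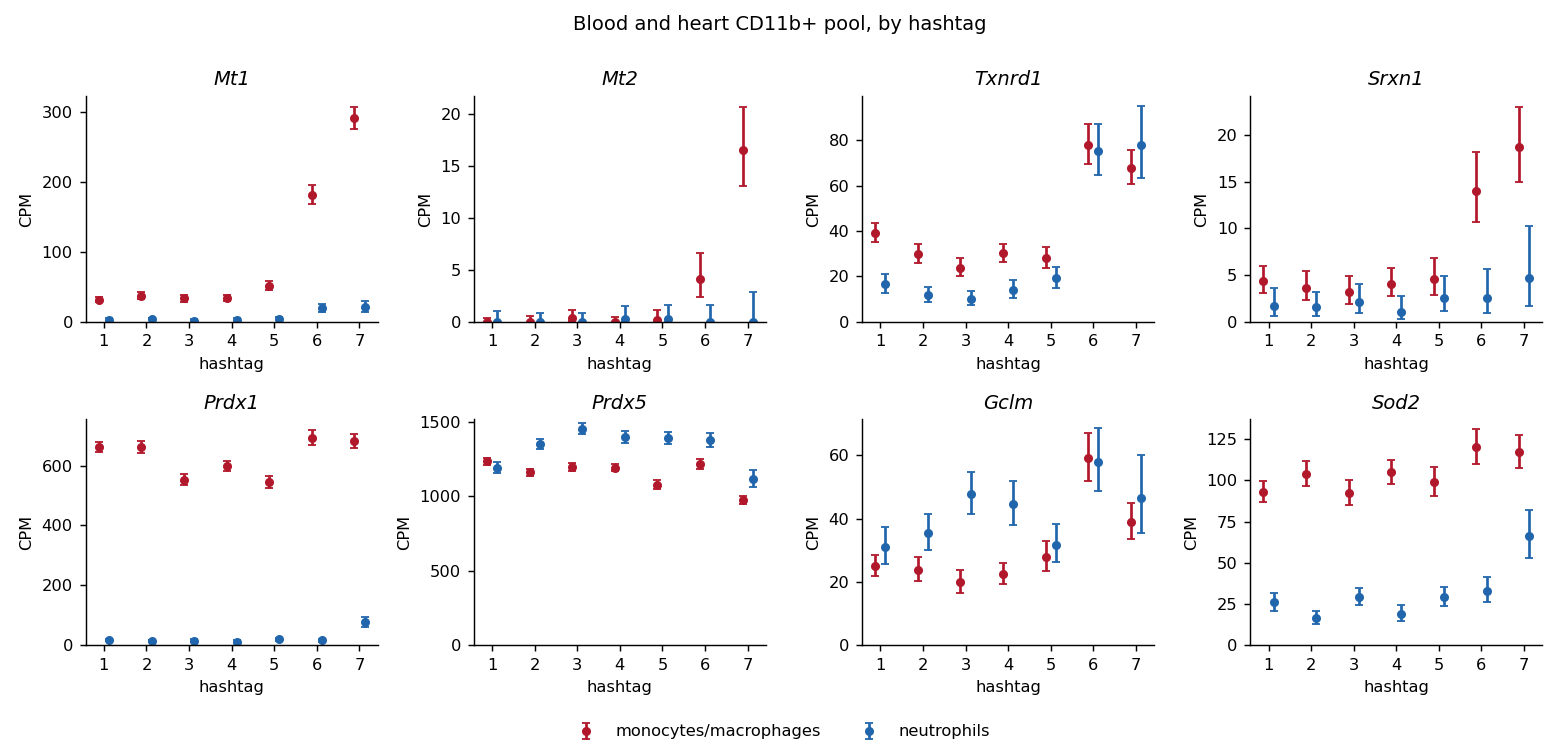
Unscaled CPM of each gene by hashtag (x axis, 1 to 7) in monocytes/macrophages and neutrophils of the pool of blood and heart, with exact 95% Poisson intervals. Hashtags are not paired with conditions; Mt1 in monocytes/macrophages is at 182 CPM under hashtag 6 and 292 CPM under hashtag 7, and between 31.4 and 51.6 CPM under the others.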

How the data were processed

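The authors deposited whole-number UMI counts per gene and cell barcode, and antibody and hashtag counts for the pools; Cell Ranger 3.0.2 and the builds GRCm38 and mm10 are named per the file headers and the submitters' processing notes. A barcode was used if it had 200 genes or more and its mitochondrial UMIs did not exceed 10%; cells with several hashtags or none were left out, and Scrublet marked 2 to 6 doublets per CD45+ library, which were removed; doublets in the pools were removed only as cells with several hashtags. Clusters (scanpy 1.11.5, 2000 variable genes, 30 components, 15 neighbours, Leiden resolution 0.5) were named from marker lists. UMIs were summed per class, day and experiment where at least 30 cells were present and tested, two-sided, with edgeR 4.0.16 (TMM, filterByExpr, glmQLFit and glmQLFTest, Benjamini-Hochberg, threshold 0.05), experiment as a term, in R 4.3.3. Within-experiment differences added 0.5 to each count. The p-values of day changes rest on how far the day differences disagreed between 2 experiments, with each gene's spread drawn towards that of other genes. Those of the class comparison rest on 6 day-and-experiment pairs, of which the pool's come from 1 capture. None measures spread between mice, which were pooled. Intervals cover counting error only. On simulated counts with 200 genes changed by 2 on the log2 scale, the test recovered 48.5% and 30.5% in neutrophils (days 3 and 5 against day 1; 6050 and 6028 genes) and 69.5% and 57.5% in monocytes/macrophages (10648 and 10616 genes). Of the simulated calls, 1.42% to 5.74% were false. The simulation used a spread of 30% in both classes, while the fitted common spread was 31.0% in neutrophils and 19.7% in monocytes/macrophages. It also gave a changed gene the same change in both experiments, which Mt1 and Mt2 did not show in the data. The genes, lists and naming rules were chosen with earlier results of these data known. Named genes are the 8, up to 3 per list and direction past the threshold, and the 3 most similar in pattern. Alternatives were DESeq2 1.42.0, total-count scaling, other filters, class definitions and designs.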

Additional observations from a re-analysis of the deposited data

Results flagged for a closer look

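The change from day 1 to day 5 of Gsto1, a glutathione transferase of the glutathione list, differed between the classes. The difference was 3.18 on the log2 scale (SE 0.61, adjusted p = 0.0461 by edgeR's quasi-likelihood test): Gsto1 rose by 3.10 in neutrophils (SE 0.64, adjusted p = 0.00845) and was at -0.18 in monocytes/macrophages, where it was not called. It was flagged because the test of the difference itself passed, where 0.69% of 10152 genes did. That test did not pair the classes of the same library or hashtag. Gsto1 was not followed in the fits that left out 1 sum or pool cluster 3, under which neutrophil calls changed.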

How the results depend on the processing

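Removing the pool's cluster 3, and counting its unnamed cluster 7 as monocytes/macrophages, were alternatives chosen after seeing the data. Of 1600 fitted differences of the 8 genes under alternatives, 1317 kept their side of the threshold and direction, 95 came to pass it, 49 no longer passed, 139 changed sign while not called, and none was called in both fits with opposite signs. In neutrophils at day 3 against day 1, the 2 genes called became 1 with total counts alone and with at most 5% mitochondrial UMIs. They became 4 with no filter on low counts. The count was 0 without the experiment term, with 0.05 added in naming, without cluster 3 or with classes from cells' own markers. It was also 0 with the 8 genes and the pathway lists together allowed among the clustering genes. Leaving out 1 sum at a time gave 0 (without CD45+ day 3) to 5 (without pool day 1), and 1 without CD45+ day 1 or pool day 5. At day 5 against day 1, the 2 became 4 with no filter or with at least 500 genes per cell, and 0 without the experiment term, with 0.05 added in naming, without cluster 3 or with own markers. Leaving out 1 sum gave 0 (without CD45+ day 5) to 5 (without pool day 1), and 4 without CD45+ day 1. In monocytes/macrophages the 0 at day 3 became 4 with DESeq2, 5 with no filter and 4 in a fit of the 2 days alone (0 to 6 leaving out 1 sum, 6 without pool day 1), the 2 at day 5 became 5 with DESeq2, with no filter or with own markers and 0 without the experiment term (2 to 7 leaving out 1 sum, 7 without CD45+ day 1), and the 0 at day 5 against day 3 became 3 in a fit of the 2 days alone (0 to 3 leaving out 1 sum, 3 without either day 1 sum). The 0 for the difference between classes at day 5 became 1 with DESeq2. The 6 of the comparison of classes stayed within 1.5 times (5 to 7 leaving out 1 sum). The cause of these shifts was not tested. All-gene calls moved by over 1.5 times in several settings. In neutrophils the 159 at day 3 against day 1 became 451 with total counts and 0 without the experiment term, and the 469 at day 5 became 1230 and 0. In monocytes/macrophages the 78 at day 3 became 519 with DESeq2, the 1128 at day 5 became 0 without the experiment term, and the 3 at day 5 against day 3 became 1183 in a fit of the 2 days alone. For the difference between classes the 2 at day 3 became 197 with DESeq2, and the 70 at day 5 became 762 with total counts. The experiment was the block of each fit, since the labels give no replicate numbers. Depth limits the CD45+ neutrophils of day 5 most (40 cells, 1 Mt2 UMI).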

Other observations

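The pool of blood and heart holds 7 hashtags whose conditions are not given in the labels, so no test was made between them. In monocytes/macrophages Mt1 was 31.4, 37.3, 33.4, 34.2, 51.6, 182 and 292 CPM under hashtags 1 to 7, and Mt2 0, 0, 0.318, 0, 0.198, 4.12 and 16.6 CPM. The counts of 0 allow up to 0.328, 0.439 and 0.381 CPM (3 UMIs of each sum). Txnrd1 was 39.3, 30.0, 23.8, 30.3, 28.2, 78.1 and 67.8 CPM, Srxn1 4.37, 3.66, 3.18, 4.07, 4.56, 14.1 and 18.7 CPM, and Gclm 25.0, 23.9, 19.9, 22.5, 27.8, 59.2 and 38.9 CPM. For these 5 genes hashtags 6 and 7 lay above the other 5. They were also the highest for Sod2 (93.1, 104, 92.3, 105, 98.8, 120 and 117 CPM) and Prdx1 (661, 662, 552, 598, 545, 693 and 683 CPM), by a smaller margin, but not for Prdx5 (1233, 1159, 1195, 1190, 1076, 1217 and 973 CPM). The class lay in different clusters: cluster 6, led by MHC class II genes with Spp1 and Arg1, held 55.6% and 65.4% of the monocytes/macrophages under hashtags 6 and 7, and 6.35% to 12.3% under the others.

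In neutrophils of the same pool, Mt1 was 2.52, 3.35, 1.64, 2.69, 3.72, 19.1 and 20.5 CPM under hashtags 1 to 7 and Txnrd1 16.5, 11.6, 10.1, 13.97, 19.2, 75.4 and 78.2 CPM, with hashtags 6 and 7 above the rest. Neutrophil cluster 3, led by Cxcl2, Il1r2 and Basp1, held 41.3% and 58.9% of the neutrophils under those hashtags and at most 0.746% under the others. Prdx1 was 16.2, 12.7, 14.8, 11.8, 18.9, 15.6 and 75.8 CPM and Sod2 26.0, 16.3, 29.3, 19.1, 29.2, 32.9 and 66.3 CPM, with hashtag 7 highest. No Mt2 UMI was found under hashtags 1, 2, 3, 6 and 7.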
